A study of Mus musculus with 9 samples.

Results

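The genes described here are 5 members of the mouse Ceacam family of adhesion molecules: Ceacam1, Ceacam2, Ceacam10, Ceacam16 and Ceacam19. They were chosen by gene symbol, and are 5 of the 47069 genes counted in each library. The choice was made knowing that Ceacam1 counts were lower in metastases than in primary tumours, so comparisons of these 5 genes with primary tumours are given as descriptions: their size, their SE and whether the gene was called, with nothing read from the call.

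RNA was sequenced from frozen prostate tumours and metastases of C57BL/6 mice aged about 9 to 10 months. There were 3 libraries each of primary prostate tumours, of proximal metastases in the epididymal fat and of distal metastases, whose tissue label names the diaphragm while the growth protocol names the lung. All 3 groups carry the allele written Ctnnb1pc(ex3)delta/+, in which exon 3 of 1 copy of Ctnnb1, the gene of beta-catenin, is deleted; a mutation of this kind stabilises the protein. The labels call the samples matched, 3 in each group, but do not say which came from the same mouse. Samples of different groups may thus share a mouse, while the comparisons take all libraries as independent. The spread between libraries may also include spread within an animal, and the library numbers 1 to 3 only name libraries.

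Ceacam proteins belong to the immunoglobulin superfamily and carry an outer variable-type domain through which cells that bear them can bind one another. Ceacam1, the best described member, sits in the membrane of epithelial cells, endothelium and leukocytes, and its long cytoplasmic tail holds inhibitory motifs that recruit the phosphatases Shp1 and Shp2. In the normal prostate Ceacam1 lies on the luminal surface of the epithelium. The mouse genome holds a close copy of it, Ceacam2, and shorter or secreted relatives.

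The 5 genes lie on chromosome 7 (GRCm38, GENCODE M21). Ceacam1 (ENSMUSG00000074272) spans 25461707 to 25477603 on the minus strand, and Ceacam2 (ENSMUSG00000054385) spans 25516042 to 25539857 on the same strand. Ceacam10 (ENSMUSG00000054169) spans 24777206 to 24784657 on the plus strand. Ceacam16 (ENSMUSG00000014686) spans 19852097 to 19861299 and Ceacam19 (ENSMUSG00000049848) spans 19875742 to 19887965, both on the minus strand. A non-coding gene on the opposite strand, 4732471J01Rik, overlaps both Ceacam1 and Ceacam2. It held 9 to 31 counts in a library. The overlap is one of whole gene spans, introns included. At 75 bases, annotated transcripts of Ceacam1 shared stretches only with Ceacam2 and Ceacam10, and those of Ceacam2 only with Ceacam1. Exon overlap with 4732471J01Rik was not measured directly, and the strand setting is not stated.

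Ceacam1 and Ceacam2 are alike enough that a read can match both, so 2 pieces of their coding sequence (CDS) are shown. Over 1560 aligned CDS bases, 1411 were identical (90.4%). Their longest identical run was 319 bases, at CDS bases 664 to 982. Its first 120 bases, CDS 664 to 783 in exons 3 and 4, were the same in both genes, and a read that lies wholly within them cannot be given to either gene:

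Ceacam1 and Ceacam2: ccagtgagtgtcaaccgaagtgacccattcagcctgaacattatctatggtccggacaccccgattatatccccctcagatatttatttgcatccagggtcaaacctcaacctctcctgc

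The least similar 90-base window was CDS 166 to 255 in exon 2, at chr7:25476513-25476602 in Ceacam1 and chr7:25538743-25538832 in Ceacam2, both on the minus strand. Here 58 of 90 bases were identical (64.4%), and a read can be told to its gene. Capitals mark the bases that differ:

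Ceacam1: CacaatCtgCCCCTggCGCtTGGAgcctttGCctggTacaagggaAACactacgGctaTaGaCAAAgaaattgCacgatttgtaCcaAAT
Ceacam2: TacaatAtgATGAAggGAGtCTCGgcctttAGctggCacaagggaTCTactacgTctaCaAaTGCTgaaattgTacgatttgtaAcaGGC

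Across the annotated transcripts, 29.6% of all 50-base stretches of Ceacam1 also occurred in Ceacam2, and 46.7% of those of Ceacam2 occurred in Ceacam1. At 100 bases the shares were 20.5% and 32.9%. The read length is not given in the sources used here, so the share of ambiguous reads is not known. Most of each gene can be counted apart, but part of the reads of either could be lost or counted for the other. For Ceacam10 3.00% of 50-base stretches were shared with Ceacam1 or Ceacam2, for Ceacam19 0.211% were shared with any gene, and for Ceacam16 17.3% were shared with Gm19345, which overlaps it on the opposite strand.

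The 9 libraries held 28334730 to 40408723 counts. The 11 luminal epithelial markers were all detected in each group, and their summed level was 3128, 18470 and 6598 CPM in primary 1, 2 and 3. CPM are counts in the usual per-million unit, with library sizes adjusted by TMM (trimmed mean of M values). The same sum was 2036 to 3075 CPM in proximal and 2722 to 2861 CPM in distal libraries. Primary 3 held 10550 CPM of seminal vesicle markers, against 10.4 and 30.9 CPM in the other primary libraries and 3.10 to 17.7 CPM in the metastases. In the distal libraries, skeletal muscle markers summed to 6.74 to 790 CPM, against 1.97 to 5.69 CPM in primary tumours. The 7 lung epithelial markers summed to 1.43 to 1.72 CPM in distal, 1.695 to 2.96 CPM in proximal and 2.76 to 20.7 CPM in primary libraries. Of these, 4 (Sftpa1, Sftpb, Scgb1a1 and Scgb3a2) were at 0 in all 3 distal libraries. In every proximal library 2 were at 0 (Sftpa1 and Scgb3a2), and in every primary library 2 (Sftpa1 and Sftpc).

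Ceacam1 RNA was high in primary tumours and low at both metastatic sites. Primary 1, 2 and 3 had 54.0, 54.1 and 89.9 CPM. Proximal 1, 2 and 3 had 2.37, 3.36 and 3.52 CPM, and distal 1, 2 and 3 had 2.62, 2.69 and 4.66 CPM. Every primary library was above every metastasis, as held for 5.99% of tested genes, with primary 3 highest, and the metastatic groups overlapped. The mean level was 66.0 ± 20.7 CPM for primary tumours, 3.09 ± 0.622 CPM for proximal metastases and 3.32 ± 1.16 CPM for distal ones (SD, n = 3 each). That is 21.4-fold lower in proximal metastases (log2 fold change -4.42, SE 0.36) and 19.9-fold lower in distal metastases (-4.31, SE 0.36). Ceacam1 rested on 1388 to 2652 counts in a primary library and on 91 to 144 in a metastasis.

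**Figure D1:**
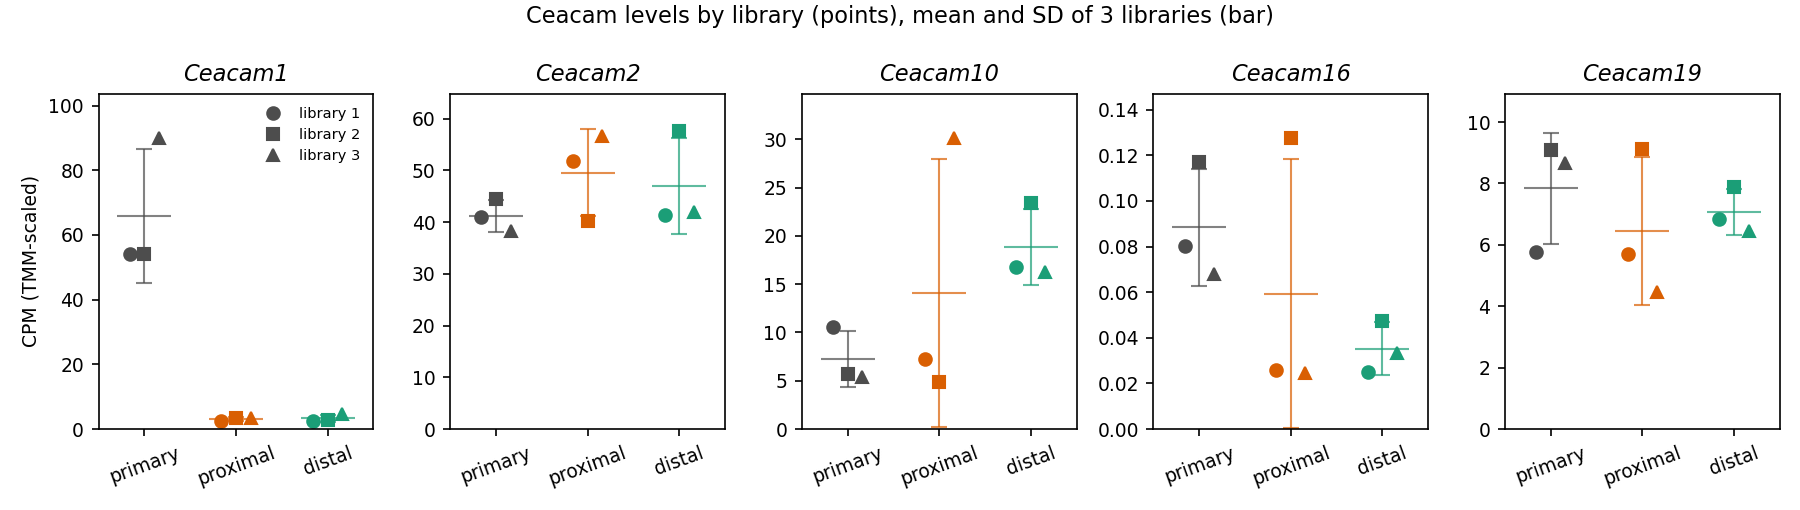
TMM-scaled CPM (linear axes from 0, a different scale in each panel) of the 5 Ceacam genes in the 9 libraries. Points are libraries 1 to 3 of each group, and bars are the mean and SD of 3 libraries, with lower ends stopped at 0. The 3 primary libraries of Ceacam1 sit between 54.0 and 89.9 CPM and the 6 metastases at or below 4.66 CPM, while the groups of Ceacam2 and Ceacam19 overlap.

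Ceacam1 was called lower in both comparisons with primary tumours by edgeR's quasi-likelihood test (Benjamini-Hochberg adjusted p below 0.05 over 18204 genes). Few genes were called at all: 0.0494% of tested genes in proximal and 0.0879% in distal against primary, all of them lower in the metastases. Under DESeq2, 136 of 1486 genes called for proximal and 205 of 1444 called for distal against primary were higher in the metastases. The call was lost in a fit of the compared groups alone, with little change in the fold (-4.42 proximal, -4.32 distal). It was also lost when single libraries were left out, which took the fold to between -4.54 and -4.12 (proximal) and between -4.62 and -4.02 (distal): for proximal against primary without proximal 1, 2 or 3 or distal 1 or 2, and for distal against primary without primary 3, proximal 1, 2 or 3, or distal 2 or 3.

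Between the metastatic sites Ceacam1 differed by a log2 fold change of 0.10 (SE 0.32, approximate 95% interval -0.52 to 0.73), with an edgeR adjusted p of 1.0. The stated ground for the choice of the genes was the comparison with primary tumours, but earlier results of these data were known when they were chosen. The approximate intervals given with fold changes come from the SE and a normal quantile, which makes them too narrow for so few libraries. Differences within the Ceacam1 interval, or somewhat beyond it, remain possible with 3 libraries a group. The interval is not a limit of detection. In the whole comparison edgeR called 0% of tested genes, with 375 at an unadjusted p below 0.05, while DESeq2 called 85 and limma-voom 0.

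The luminal marker sum was also higher in primary libraries, most of all in primary 2 and 3, so it is set beside Ceacam1. In bulk tissue, fewer cells of a type and less RNA per cell cannot be told apart. All 11 luminal markers had negative log2 fold changes in both comparisons with primary tumours, with medians of -2.29 (proximal) and -2.28 (distal), beside -0.05 and -0.03 for all tested genes. Of the 11, 8 had an unadjusted p below 0.05 in each comparison, beside 18.2% and 17.4% of all tested genes, and edgeR called 0 for proximal and 1 for distal against primary. The keratin gene Krt8, for example, was at 1010, 3763 and 1506 CPM in primary 1, 2 and 3 and at 519 to 957 CPM in the metastases. The epithelial adhesion gene Epcam was at 353, 226 and 380 CPM in primary 1, 2 and 3 and at 163 to 310 CPM in the metastases. Over the 9 libraries, which share groups and scaling, Pearson's r between log2 Ceacam1 and the log2 luminal sum was 0.72. The primary library with the smallest luminal sum, primary 1 (3128 CPM), had 54.0 CPM of Ceacam1, and the one with the largest, primary 2 (18470 CPM), had 54.1 CPM. The part of luminal cell content in the Ceacam1 difference was not tested.

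**Figure D2:**
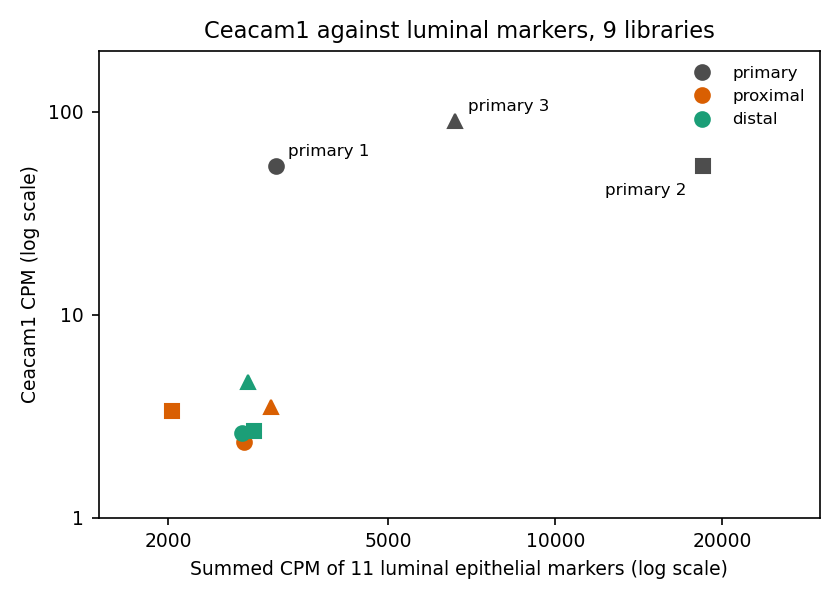
Ceacam1 CPM (vertical, log scale) against the summed CPM of 11 luminal epithelial markers (horizontal, log scale), 1 point per library, with colours for groups and shapes for library numbers 1 (circle), 2 (square) and 3 (triangle). The primary libraries span marker sums of 3128 to 18470 CPM at 54.0 to 89.9 CPM of Ceacam1, and the metastases span 2036 to 3075 CPM at 2.37 to 4.66 CPM.

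Other cells that can carry Ceacam1 were followed by their own markers. Endothelial markers summed to 219 to 316 CPM in primary, 140 to 206 CPM in proximal and 129 to 218 CPM in distal libraries. Neutrophil markers summed to 32.0, 688 and 526 CPM in primary 1, 2 and 3, to 10.5, 22.1 and 14.5 CPM in proximal and to 32.2, 125 and 574 CPM in distal libraries, in order of library number. The proximal sums were below every primary one, and the distal sums overlapped them. Macrophage markers summed to 344 to 647 CPM in primary, 163 to 296 CPM in proximal and 201 to 314 CPM in distal libraries. The sum of 6 hepatocyte markers was 4033, 120 and 651 CPM in primary 1, 2 and 3 and 5229 to 7563 CPM in metastatic libraries. Its members differed: 2 of 6 had positive log2 fold changes for proximal against primary (median -2.23), and 6 of 6 for distal against primary (median 3.45). Pearson's r with Ceacam1 over the 9 libraries was 0.74 for the endothelial, 0.55 for the neutrophil, 0.85 for the macrophage and -0.78 for the hepatocyte sum. Without primary 3, the library rich in seminal vesicle RNA, the Ceacam1 log2 fold change was -4.12 for proximal and -4.02 for distal metastases. The part of these cell types in the Ceacam1 difference was not tested.

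Ceacam2, which resembles Ceacam1 in its domains and has been described in energy balance and platelets, was found at similar levels in all 3 groups. Primary 1, 2 and 3 had 41.1, 44.4 and 38.3 CPM. Proximal 1, 2 and 3 had 51.9, 40.2 and 56.6 CPM, and distal 1, 2 and 3 had 41.4, 57.7 and 42.0 CPM. The groups overlapped, with means of 41.2 ± 3.05, 49.6 ± 8.40 and 47.0 ± 9.26 CPM (SD, n = 3 each). Its log2 fold changes were 0.27 (SE 0.19) for proximal and 0.19 (SE 0.19) for distal against primary, and it was not called. Between metastatic sites the value was -0.08 (SE 0.19, approximate 95% interval -0.45 to 0.30, edgeR adjusted p 1.0).

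Because the pair share sequence, the share of Ceacam1 in their joint counts was taken within each library. It was 56.8% in primary 1, 55.0% in primary 2 and 70.1% in primary 3. The proximal libraries 1, 2 and 3 had shares of 4.38%, 7.72% and 5.86%, while the distal libraries had 5.96%, 4.45% and 9.99%. The lowest primary share had a 95% Wilson interval of 53.0% to 56.9% and the highest metastatic share one of 8.53% to 11.7%; such intervals cover counting error only. Ceacam1 thus gave over 50% of the joint counts in each primary library and under 10% in each metastasis.

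**Figure D3:**
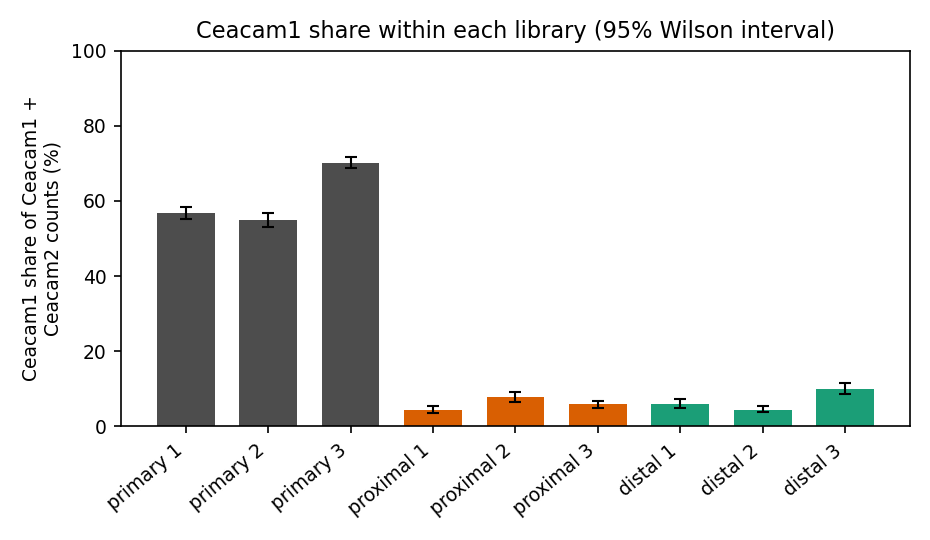
Share of Ceacam1 in the joint counts of Ceacam1 and Ceacam2 (percent, axis 0 to 100) in each of the 9 libraries, with 95% Wilson intervals for counting error. The 3 primary libraries lie at 55.0% to 70.1% and the 6 metastases at 4.38% to 9.99%.

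Counted as 1 gene, the pair reached 107 ± 18.2 CPM in primary tumours, with 52.6 ± 8.36 CPM at the proximal site and 50.3 ± 8.81 CPM at the distal one (SD, n = 3 each). The primary libraries ranged from 95.04 to 128 CPM and the metastases from 43.6 to 60.4 CPM, with no overlap (5.99% of tested genes had all metastases below all primary libraries). The log2 fold change of the sum was -1.03 for proximal and -1.09 for distal against primary, and neither was called. Reads counted for the wrong gene of the pair would leave this sum as it is. How much of the Ceacam2 count came from Ceacam1 reads in primary tumours was not tested.

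Ceacam10, a short secreted protein first known from the seminal vesicle, had its highest single value in a metastasis. Primary 1, 2 and 3 had 10.6, 5.69 and 5.43 CPM. Proximal 1, 2 and 3 had 7.28, 4.92 and 30.1 CPM, and distal 1, 2 and 3 had 16.8, 23.4 and 16.3 CPM. All distal libraries were above all primary ones, as held for 8.4% of tested genes, while the proximal group spanned the range of both others. The mean level was 7.23 ± 2.89 CPM for primary tumours, 14.1 ± 13.9 CPM for proximal metastases and 18.8 ± 3.96 CPM for distal ones (SD, n = 3 each).

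The log2 fold change of Ceacam10 was 0.96 (SE 0.65) for proximal and 1.38 (SE 0.65) for distal against primary, and neither was called. The proximal value rested on proximal 3: without that library it was -0.23. Distal against proximal gave 0.42 (SE 0.64, approximate 95% interval -0.84 to 1.68, edgeR adjusted p 1.0). That value also rested on single proximal libraries: it was 0.10 without proximal 1, 0.01 without proximal 2 and 1.63 without proximal 3, with an edgeR adjusted p of 1.0 in each. Without distal 2 it was 0.23, again at 1.0. Pearson's r between log2 Ceacam10 and the log2 sum of the seminal vesicle markers was -0.46 over the 9 libraries, which share groups and scaling. Primary 3, with 10550 CPM of these markers, had 5.43 CPM of Ceacam10, the lowest of the primary libraries. Proximal 3, with 30.1 CPM of Ceacam10, had 7.82 CPM of those markers. The part of seminal vesicle tissue in the Ceacam10 levels was not tested.

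Ceacam19, a membrane protein of the family with few described functions, was low and even across the groups. Primary 1, 2 and 3 had 5.77, 9.09 and 8.68 CPM. Proximal 1, 2 and 3 had 5.71, 9.13 and 4.47 CPM, and distal 1, 2 and 3 had 6.84, 7.90 and 6.46 CPM. The groups overlapped, with means of 7.84 ± 1.81, 6.44 ± 2.41 and 7.07 ± 0.745 CPM (SD, n = 3 each). Log2 fold changes were -0.29 (SE 0.33) for proximal and -0.15 (SE 0.33) for distal against primary, and were not called. Distal against proximal gave 0.14 (SE 0.32, approximate 95% interval -0.50 to 0.77, edgeR adjusted p 1.0).

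Ceacam16, a secreted protein of the tectorial membrane of the inner ear, was near the limit of detection and did not pass the filter on low counts. In order of library number it had 3, 3 and 2 counts for primary, 1, 5 and 1 counts for proximal and 1, 2 and 1 counts for distal libraries. Pooled within groups this was 0.0832 CPM of the unscaled totals in primary tumours (exact 95% Poisson interval 0.0359 to 0.164), 0.0601 at the proximal site (0.0242 to 0.124) and 0.0368 at the distal site (0.0100 to 0.0941). The intervals, which cover counting error only, overlapped, so no difference was detectable at this depth.

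**Figure D4:**
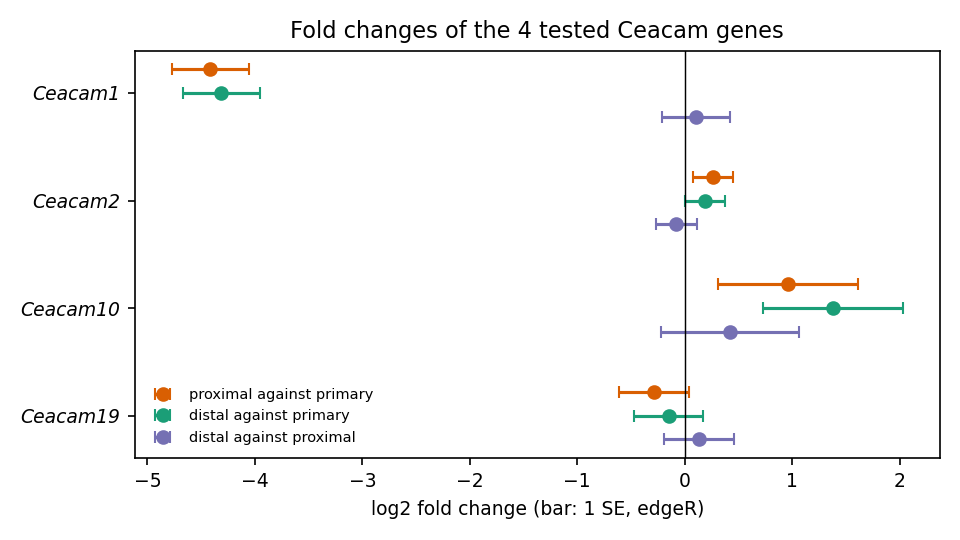
Log2 fold changes of the 4 Ceacam genes that passed the filter (horizontal axis, edgeR), with bars of 1 SE, in the 3 comparisons. Ceacam1 lies at -4.42 and -4.31 against primary tumours and at 0.10 between metastatic sites, and the other 3 genes lie between -0.29 and 1.38.

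Set side by side per kilobase of merged exons, the order of the genes differed between primary tumours and metastases. In primary libraries Ceacam1 (11.4 ± 3.57 CPM per kb) and Ceacam2 (10.9 ± 0.805) led and differed by less than their SD. Ceacam10 (4.83 ± 1.93), Ceacam19 (2.33 ± 0.539) and Ceacam16 (0.0541 ± 0.0156) followed. In proximal libraries Ceacam2 had 13.1 ± 2.22 CPM per kb and Ceacam10 9.42 ± 9.30, a gap within the spread of Ceacam10. Below them came Ceacam19 with 1.92 ± 0.717 and Ceacam1 with 0.532 ± 0.107. In distal libraries Ceacam10 (12.6 ± 2.65) and Ceacam2 (12.4 ± 2.45) differed by less than their SD, and Ceacam19 (2.103 ± 0.222) again lay above Ceacam1 (0.573 ± 0.200). All are levels, with SD over 3 libraries, and those of Ceacam1 and Ceacam2 carry the uncertainty of their shared sequence.

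The genes did not vary as 1 group over the 9 libraries. Pearson's r of log2 CPM was -0.53 between Ceacam1 and Ceacam2, -0.50 between Ceacam1 and Ceacam10 and 0.32 between Ceacam1 and Ceacam19. It was 0.61 between Ceacam2 and Ceacam10, -0.47 between Ceacam2 and Ceacam19 and -0.63 between Ceacam10 and Ceacam19. The value for Ceacam1 and Ceacam2 carries the uncertainty of their shared sequence. These values are descriptions over libraries that share groups and scaling.

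Among the 5 genes most like Ceacam1 over the 9 libraries, of 14806 with a mean of at least 1 CPM, were Klf4 (r = 0.99), B3gnt7 (0.99) and Fxyd4 (0.98). Their levels all set primary tumours apart from metastases, as those of Ceacam1 do. Klf4, a transcription factor of epithelial differentiation, was at 51.0 to 87.9 CPM in primary libraries and 13.9 to 17.5 CPM in metastases. The glycosyltransferase gene B3gnt7 was at 19.2 to 86.9 CPM and 0.522 to 1.03 CPM. Fxyd4, which encodes a regulator of the sodium pump, was at 7.88 to 39.7 CPM and 0.0733 to 0.300 CPM. All were found by their likeness to Ceacam1, so the match of their patterns is no further result.

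For the other genes the closest patterns had smaller contrasts between groups. Nearest to Ceacam2 were Lrrc40 (r = 0.89), the mitochondrial deubiquitinase gene Usp30 (0.86), the cadherin gene Cdh24 (0.85), Acnat1 (0.83) and Pex5l (0.82). Lrrc40 averaged 41.0 CPM in primary tumours and 42.4 and 43.3 CPM in the proximal and distal metastases. Among those nearest to Ceacam10 were Tmem147 (0.94), the CTP synthase gene Ctps2 (0.92), the glutaredoxin gene Glrx2 (0.90) and Ndufv2 (0.90), a subunit of respiratory complex I. Nearest to Ceacam19 were Myof (0.91), which encodes the membrane repair protein myoferlin, then Fam53b (0.91), Tmem86b (0.89), the amine oxidase gene Aoc2 (0.88) and Ppfibp2 (0.86). Tmem147 averaged 90.7 CPM in primary and 102 CPM in distal libraries, a far narrower contrast than that of Ceacam10. Each r is over 9 libraries that share groups and scaling.

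The remaining Ceacam genes were scarce. Of 11 others listed, 10 were in the count files. Ceacam5, Ceacam11 and Ceacam14 had 0 counts in all 9 libraries, which at a limit of 3 counts allows up to 0.0312 CPM in the pooled primary libraries. A further 5 had at most 7 counts in any library. None of the 10 passed the filter.

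The exceptions were Ceacam20, known from the microvilli of intestinal epithelium, and Ceacam18, and both rested on primary 1. Ceacam20 had 409 counts (10.97 CPM) in primary 1, 5 and 3 in primary 2 and 3, 1, 9 and 0 in proximal 1, 2 and 3, and 0 in every distal library. Ceacam18 had 71 counts (1.90 CPM) in primary 1, 0 and 2 in primary 2 and 3, with 0, 13 and 0 counts for the proximal libraries and 2, 1 and 0 counts for the distal ones. Both were thus high in 1 primary library only, whereas Ceacam1 was high in all 3.

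**Figure D5:**
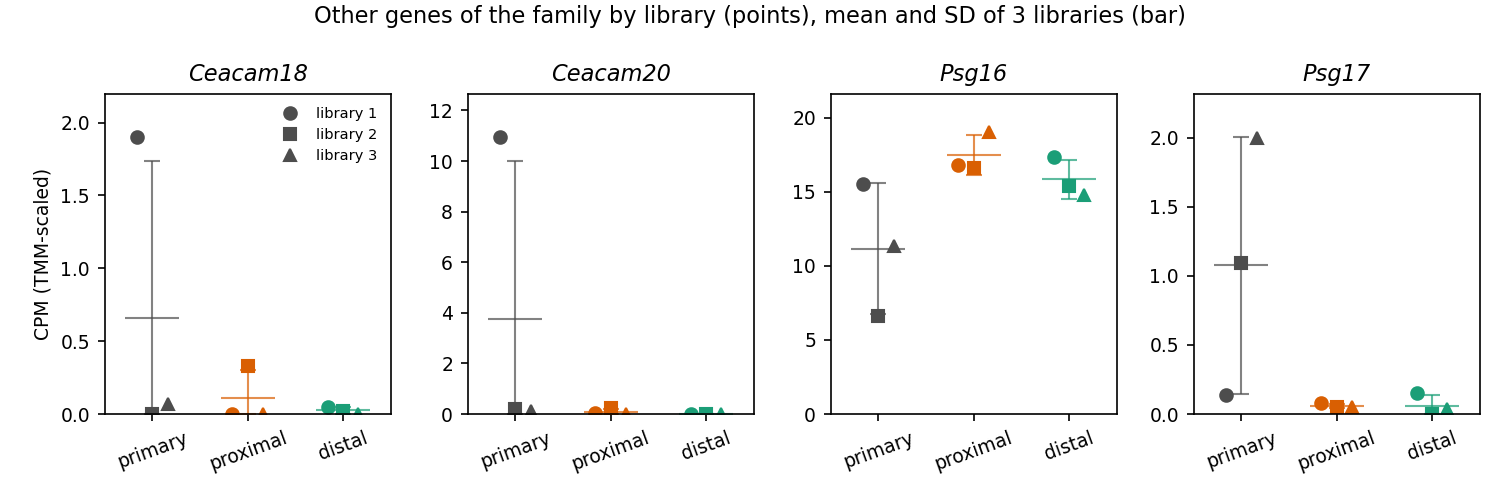
TMM-scaled CPM (linear axes from 0, a different scale in each panel) of Ceacam18, Ceacam20, Psg16 and Psg17 in the 9 libraries. Points are libraries 1 to 3 of each group, and bars are the mean and SD of 3 libraries, with lower ends stopped at 0. Ceacam20 reaches 10.97 CPM in primary 1 and Psg17 reaches 2.001 CPM in primary 3, while Psg16 is present in every library.

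Pregnancy-specific glycoproteins (Psg) form the sister branch of the family and are best known as secreted proteins of the placenta. Of 13 Psg genes, 2 passed the filter and 0 were called in any comparison, with 0 at an unadjusted p below 0.05 in edgeR. Of all tested genes, edgeR called 0.0494% (proximal against primary), 0.0879% (distal against primary) and 0% (distal against proximal). An unadjusted p below 0.05 was held by 18.2%, 17.4% and 2.06%, so 0 of 2 genes sets the Psg genes apart from no others. Psg16 was the most abundant, at 11.2 ± 4.44 CPM in primary tumours and 17.5 ± 1.34 and 15.8 ± 1.33 CPM in the proximal and distal metastases (SD, n = 3 each). Psg23 stayed below 1 CPM on average in each group, with 0.261 CPM in primary tumours and 0.234 and 0.254 CPM in the proximal and distal metastases. Psg17 had 5, 28 and 59 counts in primary 1, 2 and 3 and at most 6 in any metastasis. Psg25 had 2, 25 and 47 counts in primary 1, 2 and 3 and at most 4 in any metastasis. These 2 genes and Ceacam20 thus came from different primary libraries.

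Ceacam1 acts through partners inside and on the cell, and 16 of these were all tested. In each of the 3 comparisons edgeR called 0 of them, with 3, 1 and 0 at an unadjusted p below 0.05 for proximal against primary, distal against primary and distal against proximal. Of all tested genes, 18.2%, 17.4% and 2.06% had such a p. DESeq2 called 1, 1 and 0, where it called 8.16%, 7.93% and 0.467% of all genes. Their median log2 fold changes were -0.22, -0.09 and 0.09, beside -0.05, -0.03 and -0.01 for all tested genes. Without primary 1, edgeR called 5 of them for proximal and 4 for distal against primary, and 28.7% and 27.4% of all genes.

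The leading partners by mean level included Ctnnb1, Fasn and Flna. Ctnnb1, which encodes beta-catenin and carries the engineered allele, was at 2366 ± 1804 CPM in primary tumours and 4323 ± 670 and 4069 ± 467 CPM in the proximal and distal metastases (SD, n = 3 each). The fatty acid synthase gene Fasn was at 551 ± 143, 496 ± 66.5 and 520 ± 94.4 CPM. Flna, the gene of the actin crosslinker filamin A, was at 581 ± 131, 454 ± 71.3 and 523 ± 50.2 CPM. The phosphatases that bind the inhibitory motifs were chosen after their values were seen. Ptpn6 (Shp1) was at 58.3 ± 13.2, 62.6 ± 2.83 and 61.2 ± 2.36 CPM, and Ptpn11 (Shp2) at 230 ± 47.6, 240 ± 14.2 and 248 ± 11.4 CPM, in the same order of groups. Their log2 fold changes against primary lay between 0.06 and 0.11, where those of Ceacam1 were -4.42 and -4.31.

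Other adhesion genes of the immunoglobulin superfamily were compared through a list of 24, of which 23 were tested. In each of the 3 comparisons edgeR called 0 of them, with 8, 9 and 0 at an unadjusted p below 0.05, beside 18.2%, 17.4% and 2.06% of all tested genes. DESeq2 called 6, 4 and 0, beside 8.16%, 7.93% and 0.467% of all genes. Without primary 1, edgeR called 10 for proximal and 7 for distal against primary, beside 28.7% and 27.4% of all genes. Their median log2 fold changes were -0.45, -0.26 and 0.10, beside -0.05, -0.03 and -0.01 for all tested genes.

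The 4 most abundant were Bcam, F11r, Nectin2 and Cxadr. Bcam, a laminin receptor, was at 264 ± 193 CPM in primary tumours and 576 ± 63.6 and 491 ± 14.6 CPM in the proximal and distal metastases (SD, n = 3 each). The tight junction gene F11r was at 291 ± 45.7, 279 ± 14.9 and 275 ± 13.5 CPM. Nectin2, an adherens junction gene, was at 135 ± 44.7 CPM in primary tumours, with log2 fold changes of -0.43 and -0.44. Cxadr, another tight junction gene, was at 131 ± 25.4, 94.7 ± 10.0 and 96.5 ± 4.55 CPM.

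Alcam, chosen after its values were seen, had log2 fold changes of -4.66 (SE 1.04) and -4.58 (SE 1.03) against primary. These are as large as those of Ceacam1, but its primary level of 248.8 ± 237 CPM (SD, n = 3) varied far more between libraries, and it was not called.

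The genes around Ceacam1 on chromosome 7 were compared last. Nearest at lower coordinates were Cxcl17, Lipe and Cnfn, at 48821, 62997 and 91983 bases. At higher coordinates they were Ceacam2, Erich4 and Dmac2, at 38439, 137017 and 141811 bases. Lipe, the hormone-sensitive lipase gene, was at 24.99 to 42.6 CPM in primary tumours and at 22.2 to 33.7 and 17.4 to 36.8 CPM in the proximal and distal metastases. Dmac2, which encodes a factor for respiratory complex assembly, was at 20.2 to 26.9 CPM in primary tumours and at 19.98 to 21.0 and 19.1 to 20.9 CPM in the proximal and distal metastases. Cnfn, the gene of the cornified envelope protein cornifelin, had 4, 32 and 195 counts in primary 1, 2 and 3 and at most 2 in any metastasis. The chemokine gene Cxcl17 had 2, 9 and 44 counts in primary 1, 2 and 3 and at most 9 in any metastasis, and Erich4 had at most 2 anywhere. The neighbours at these CPM levels, Ceacam2, Lipe and Dmac2, were not called in either comparison with primary tumours. EdgeR called only 0.0494% of all tested genes for proximal and 0.0879% for distal against primary, so nearly every gene lacked a call.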

How the data were processed

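The deposited files held raw counts per Ensembl gene for 9 libraries. Per the submitters' processing notes, the authors' work names HTSeq 0.6.0 and the build GRCm38.p3. TopHat2 2.1.0 is named too, as are DESeq2 1.14.1, FastQC 0.11.4 and R 3.2.3, and also Bowtie2 2.2.6.0. Not given in the sources used here are the strand setting, annotation release, read length and read filters. A further engineered allele in the labels and some genes that the naming rule selects are not reported here.

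Here, 18204 genes passed edgeR 4.0.16's filterByExpr (minimum count 10, minimum total 15) and were fitted over all 9 libraries with TMM scaling and the robust quasi-likelihood F-test in R 4.3.3 (6 residual degrees of freedom, no animal term). Calls needed a Benjamini-Hochberg adjusted p below 0.05. SEs come from this fit, and the approximate 95% intervals of fold changes come from these SEs with a normal quantile. The script was tested on simulated data with the same dispersion for every gene. That checks the code only and does not cover groups as uneven as the primary libraries. No libraries were duplicates (lowest chi-square per gene 25.4). By this measure primary 1 was nearer to the metastases (47.6 to 80.9) than to primary 2 (828) or primary 3 (336). The cause was not tested. A gene at 1 CPM holds 28.3 to 40.4 counts. Alternatives used limma 3.58.1, DESeq2 1.42.0, other scalings and filters, and each library left out. Positions, exons and sequences come from GENCODE M21 on GRCm38.

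Members, lists and markers were chosen with earlier results of these data known. The text names all 5 members, other Ceacam genes with at least 10 counts in 1 library, up to 4 genes of each further list (called ones first, then by mean CPM), the 5 genes most correlated with each tested member among those of at least 1 CPM without predicted or clone-based names, and the 3 protein-coding neighbours on each side of Ceacam1.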

Additional observations from a re-analysis of the deposited data

How the results depend on the processing

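No paired analysis was possible because the labels do not say which samples share a mouse, and the library numbers were given here. The number of genes called depended on the setting. For proximal against primary, 9 were called, against 15 with median-ratio size factors, 1486 with DESeq2, 1 with limma-voom, 26 with no filter, 23 with a filter of 1 CPM in 3 libraries, 22 without robust shrinkage and 0 with the compared groups alone (2026 at an unadjusted p below 0.05). For distal against primary, 16 were called, against 10 with library totals alone, 1444 with DESeq2, 1 with limma-voom and 0 with the compared groups alone (1916 at an unadjusted p below 0.05). For distal against proximal, 0 were called by edgeR (375 at an unadjusted p below 0.05) and 85 by DESeq2. The causes were not tested.

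Leaving out 1 library at a time gave 0 to 5447 calls for proximal against primary, 0 to 5203 for distal against primary and 0 to 38 for distal against proximal. In the order of these first 2 comparisons, calls were 5447 and 5203 without primary 1, 22 and 26 without primary 2, 2 and 0 without primary 3, 0 and 35 without distal 1, 1 and 0 without distal 3, and 0 and 0 without proximal 1, 2 or 3 or distal 2. The 38 came without distal 1. Directions changed too: 2622 of the 5447 and 2516 of the 5203 were higher in metastases, as were 32 of the 35, where all calls of the full fit were lower.

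Ceacam1 kept its direction against primary in all fits. Its log2 fold change was -4.42 and -4.32, not called, with the compared groups alone. With Ceacam1 and Ceacam2 summed it was -1.03 and -1.09, not called, and -0.064 for distal against proximal, a change of sign. With 1 library left out it was -4.54 to -4.12 (called in 4 of 9 fits), -4.62 to -4.02 (called in 3 of 9) and -0.22 to 0.25 for distal against proximal. The same fits took Ceacam10 from -0.23 to 1.38 for proximal against primary. For distal against proximal they took Ceacam10 from 0.01 to 1.63, Ceacam2 from -0.25 to 0.03 and Ceacam19 from -0.07 to 0.47. Ceacam16 has no fitted value. All 30 mean CPM values of the 5 genes stayed within 1 SD under both other scalings. The counts of Ceacam1 in metastases, and of all genes named at fewer than 10 counts, limit precision.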
